A study of Danio rerio with 10 samples.

Results

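The genes described here encode leukocyte actin regulators and subunits of the Arp2/3 complex. They were 10 named genes, and their members on the array were all probe sets annotated with a single gene symbol from that list. That rule found 9 of the 15502 probe sets tested, covering 8 genes: arpc1b, arpc1a, arpc4, arpc5b, coro1a (with 2 probe sets), lcp1, wasb and capgb. The other 2, arpc2 and cfl1, had no such probe set. RNA came from whole zebrafish kidney marrow, the blood-forming tissue of the adult fish, and 10 Affymetrix arrays gave a log2 signal per probe set. There were 5 arrays from fish that overexpressed human CREB, a factor that acts downstream of cyclic AMP, and 5 from control fish, and the design text counts 5 animals in each group. The labels used here give no promoter for the transgene and no strain, age or sex. The study's title places the comparison in leukaemia with a block of myeloid maturation.

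The Arp2/3 complex binds the side of an actin filament and starts a branch from it. The complex is inactive until a protein of the Wiskott-Aldrich syndrome family switches it on, and the branched network pushes out the leading edge of a crawling leukocyte and the cup around a phagocytosed particle. Coronins, plastins and capping proteins then shape, bundle or end those filaments. Several of these genes are expressed mainly in blood cells, among them coro1a, lcp1 and the Wiskott-Aldrich gene family member represented here by wasb, while arpc1a is the broadly expressed form of a subunit whose blood-cell-rich form in mammals is ARPC1B.

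Leukocyte RNA was present on all arrays. The neutrophil lysozyme gene lyz averaged 13.48 ± 0.35 in CREB fish and 14.07 ± 0.22 in controls on the log2 scale (SD, n = 5 each), and the myeloperoxidase gene mpx averaged 10.17 ± 0.54 in CREB fish and 10.94 ± 0.65 in controls. The pan-leukocyte phosphatase gene ptprc averaged 9.06 ± 0.59 in CREB fish and 9.49 ± 0.58 in control fish, and the myeloid factor gene spi1b lay between 8.32 and 10.91 in CREB fish and between 9.06 and 10.56 in control fish. Array medians lay between 5.72 and 5.93. Several arrays stood apart by transcripts of other tissues or by RNA quality. Muscle markers (11 of 12 measured) were at a mean level of 8.59 to 11.91 on CREB arrays and 5.16 to 5.92 on control arrays, and kidney markers (8 of 11) at 8.80 to 9.79 on CREB arrays and 7.54 to 8.25 on control arrays. Gonad and egg markers (11 of 13) were at 6.83 on CREB array 4 and between 4.98 and 5.80 on the other CREB arrays, against 8.69, 7.36 and 8.71 on control arrays 3, 4 and 5 and 5.54 and 5.19 on control arrays 1 and 2. Pancreas markers (8 of 12) were at 6.96 or less on the CREB arrays, against 10.15 and 11.40 on control arrays 4 and 5 and 6.95 or less on the other control arrays. CREB arrays 3 and 5 had a gapdh 5′ control signal of 6.50 and 6.74, against 9.54 to 10.70 on the other 8 arrays. The gapdh 3′ minus 5′ log2 difference was 4.89 and 4.46 on these arrays, against 1.06 to 1.53 on the other 8. In RNA of a whole tissue, fewer leukocytes and less of a transcript in each leukocyte cannot be told apart.

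Of the 9 member probe sets, 1 passed the test between CREB and control fish, that of arpc1b, which was lower in CREB fish. None was higher. Over the whole array 6.79% of probe sets were lower, 23.5% were higher and 30.3% passed in either direction (limma, adjusted p under 0.05). The share of members called, 1 of 9, is therefore no result about the members as a group. Their log2 differences, CREB minus control, were below 0 for 7 probe sets and above 0 for 2, against 37.3% below 0 over all probe sets. The median member difference was -0.53, and the median over all probe sets was 0.18. The member median was lower than that of all probe sets under each of 3 other scalings too. At an unadjusted p under 0.05 the count was 4 lower and none higher, against 11.3% lower over all probe sets. No member was free of overlap between the groups. Over all probe sets, 4.2% had every CREB array below every control array and 19.6% had every CREB array above. The shares over all probe sets include dim ones, whereas 8 of the 9 member probe sets averaged log2 6 or more. With probe sets under log2 6 left out, the median over all was -0.03 and the member median -0.61. Of all calls, 40.6% were then lower, against 22.4% with dim probe sets kept. The share below 0 among bright probe sets was not counted.

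**Figure D1:**
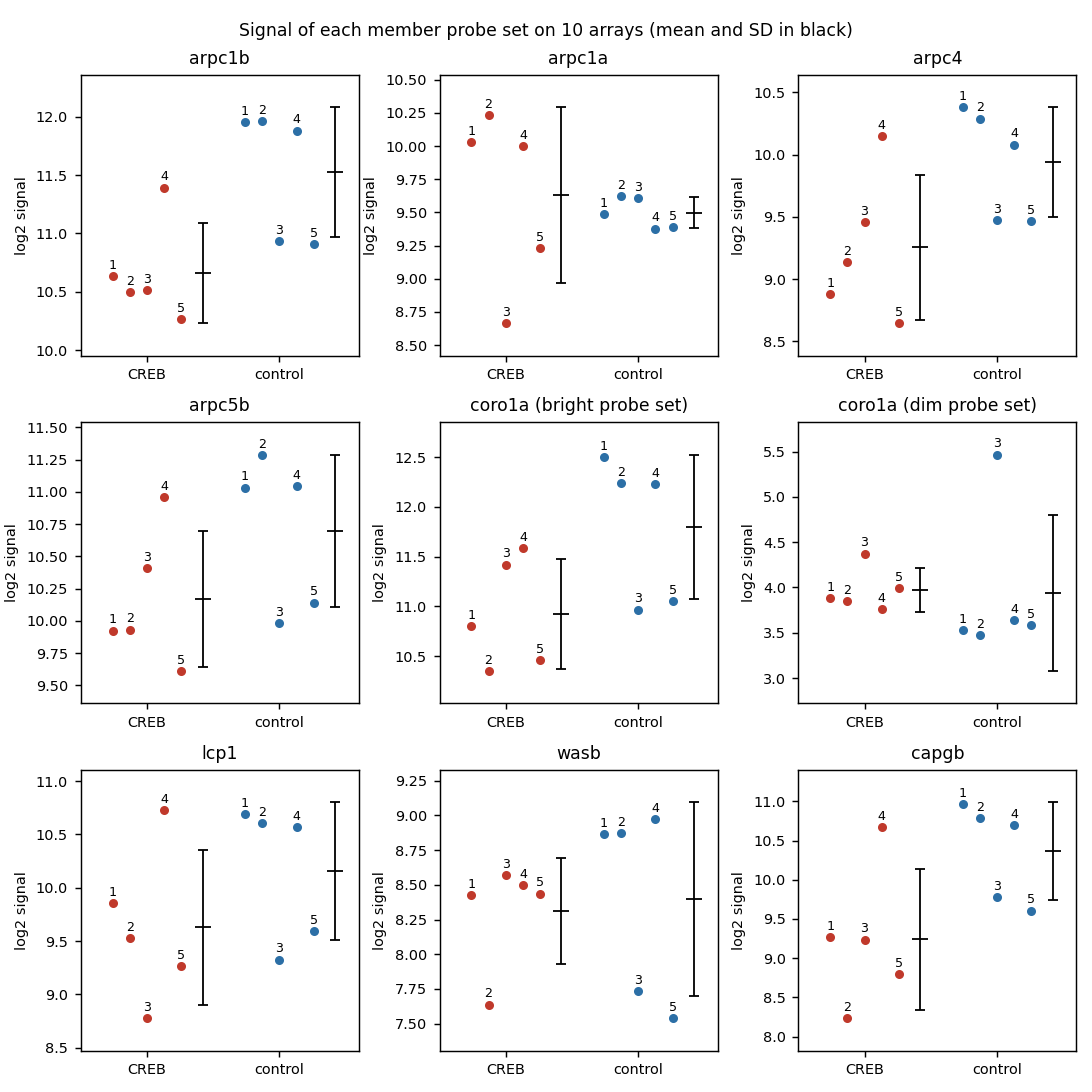
Log2 signal (vertical axis, scaled separately in each panel) of the 9 member probe sets on 5 CREB arrays (red, left) and 5 control arrays (blue, right). Points are single arrays with their numbers, and black bars give the mean and SD. Control arrays 1, 2 and 4 sit above control arrays 3 and 5 in 7 of the panels, and CREB array 4 is the highest CREB array in 6.

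Among the Arp2/3 subunits, arpc1b encodes one of the alternative forms of its propeller-shaped subunit. Its log2 signal was 10.63, 10.50, 10.51, 11.39 and 10.27 on CREB arrays 1 to 5, against 11.96, 11.96, 10.93, 11.88 and 10.91 on control arrays 1 to 5. CREB arrays 1, 2, 3 and 5 lay below the lowest control array, and CREB array 4 lay inside the control range. The mean was 10.66 ± 0.43 in CREB fish and 11.53 ± 0.56 in controls (SD, n = 5 each). The gene fell by 0.87 ± 0.29 on the log2 scale (SE), which is 0.548 of the control level (limma, adjusted p = 0.0457). That value is close to the threshold. The call was lost without any of CREB arrays 1, 2, 3 and 5 or control arrays 1, 2 and 4, with differences between -0.76 and -0.86 (limma, adjusted p between 0.0819 and 0.0995), and also under quantile scaling (-0.81, adjusted p = 0.0690) and median centring (-0.93, adjusted p = 0.0506). It was lost too with dim probe sets left out (-0.87, limma, adjusted p = 0.0601), without CREB arrays 3 and 5 (-0.69, adjusted p = 0.192) and with control arrays 1 and 2 as the only controls (-1.30, adjusted p = 0.0630). The difference was below 0 under all 21 alternatives and passed under 9 of them, and its adjusted p ranged from 0.00576 to 0.192.

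The other form of that subunit, arpc1a, showed another pattern. In the zebrafish assembly GRCz12tu, arpc1b is the next protein-coding gene after it. The signal was 10.03, 10.24, 8.66, 9.998 and 9.23 on CREB arrays 1 to 5, against 9.49, 9.62, 9.61, 9.38 and 9.39 on control arrays 1 to 5. CREB arrays 1, 2 and 4 lay above all control arrays and CREB arrays 3 and 5 below all of them. The group means were 9.63 ± 0.66 in CREB fish and 9.50 ± 0.12 in controls (SD, n = 5 each), so the spread was wide in CREB fish and narrow in control fish. The difference of 0.14 ± 0.28 (SE) missed the threshold (limma, adjusted p = 0.722), and its 95% interval ran from -0.48 to 0.75. CREB arrays 3 and 5 are the arrays with the low gapdh 5′ signal. Without them arpc1a was higher in CREB fish by 0.59 (limma, adjusted p = 0.0238), where 10.7% of all probe sets were higher. As the arrays left out were the lowest for arpc1a, a rise follows from the choice. The gene passed under 1 of 21 alternatives, this one. The part of RNA quality in the low arpc1a signal of those arrays was not tested.

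The difference between both forms was taken within each array. That removes a shift common to the whole array but not a scaling that varies with signal. It does not put the probe sets on one scale of abundance. The log2 signal of arpc1b minus that of arpc1a was 0.60, 0.26, 1.85, 1.39 and 1.04 on CREB arrays 1 to 5, against 2.47, 2.34, 1.33, 2.50 and 1.52 on control arrays 1 to 5. All CREB arrays but 3 and 4 lay below every control array, and those 2 lay within the control range. The mean was 1.03 ± 0.63 in CREB fish and 2.03 ± 0.56 in controls (SD, n = 5 each), a change of -1.003 (two-sided exact permutation p = 0.0476, with 0.00794 the smallest that 5 against 5 allows). Unequal change of the 2 probe set signals passed the threshold only narrowly. A within-array difference does not remove tissue make-up, and kidney and muscle markers were higher on the CREB arrays. The part of arpc1a RNA from cells other than blood cells in this change was not tested. Leaving out any of CREB arrays 1, 2, 4 and 5 or control arrays 1, 2 and 4 gave changes from -0.81 to -1.09 and exact permutation p between 0.0556 and 0.0873.

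**Figure D2:**
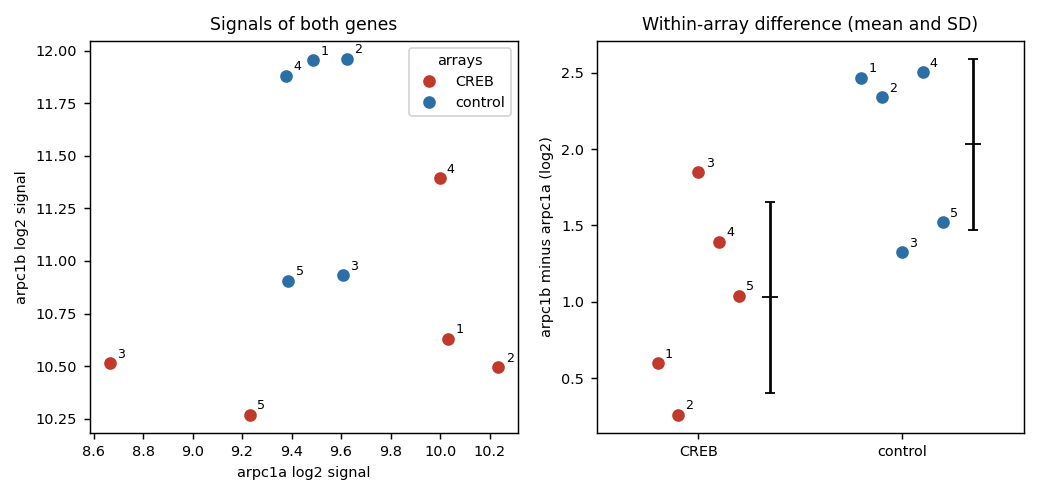
Left, log2 signal of arpc1b (vertical axis) against that of arpc1a (horizontal axis) on each array; right, the within-array log2 difference arpc1b minus arpc1a by group, with mean and SD in black. Red points are CREB arrays, blue points control arrays, and numbers give the array. The control arrays span a narrow range of arpc1a (9.38 to 9.62), and the within-array difference averages 1.03 in CREB fish and 2.03 in control fish.

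The remaining measured subunits were lower on average without passing the test. The gene arpc4, whose product is part of the core that contacts the side of the filament, was at 8.88, 9.14, 9.46, 10.15 and 8.65 on CREB arrays 1 to 5, against 10.38, 10.29, 9.48, 10.08 and 9.47 on control arrays 1 to 5. All CREB arrays but array 4 lay below the lowest control array, though array 3 did so by a narrow margin, and array 4 overlapped with the high control arrays. The difference was -0.68 ± 0.30 (SE; limma, adjusted p = 0.104), with a 95% interval from -1.35 to -0.02. With array weights it passed at -0.95 (limma, adjusted p = 0.0170). Those weights count the low control arrays 3 and 5 for less, so a larger fall follows from them, here and in the genes below.

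The gene arpc5b encodes a form of the smallest subunit. Its signal was 9.92, 9.93, 10.41, 10.96 and 9.61 on CREB arrays 1 to 5, against 11.03, 11.29, 9.98, 11.04 and 10.14 on control arrays 1 to 5. CREB arrays 3 and 4 overlapped with the control arrays, and the other 3 CREB arrays lay below all of them. The difference was -0.53 ± 0.32 (SE; limma, adjusted p = 0.220; 95% interval from -1.25 to 0.19), and with array weights it passed at -0.87 (adjusted p = 0.0277). A further probe set annotated to both arpc4 and arpc4l was outside the rule and was not used here.

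Of the upstream activator and the filament regulators, wasb was the least different between groups. It is a zebrafish homologue of the Wiskott-Aldrich syndrome gene, whose human product activates Arp2/3 in blood cells. Its signal was 8.43, 7.64, 8.57, 8.50 and 8.44 on CREB arrays 1 to 5, against 8.86, 8.87, 7.73, 8.97 and 7.54 on control arrays 1 to 5. The CREB arrays other than array 2 lay close together, between the high control arrays 1, 2 and 4 and the low control arrays 3 and 5. The difference was -0.08 ± 0.33 (SE; limma, adjusted p = 0.856), with a 95% interval from -0.81 to 0.64. The sign was not stable: without CREB array 2 the difference was 0.09, and without control array 1, 2 or 4 it was 0.03, 0.04 or 0.06 (limma, adjusted p between 0.853 and 0.946).

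The leukocyte coronin gene coro1a, whose product binds filaments and Arp2/3, had a bright probe set and a dim one. The bright one was at 10.80, 10.35, 11.42, 11.58 and 10.46 on CREB arrays 1 to 5, against 12.50, 12.24, 10.97, 12.23 and 11.05 on control arrays 1 to 5. CREB arrays 1, 2 and 5 lay below all control arrays, and CREB arrays 3 and 4 lay between the low and the high control arrays. The difference of -0.88 ± 0.37 (SE) missed the threshold (limma, adjusted p = 0.0947; 95% interval from -1.70 to -0.05). It passed with array weights, at -1.29 (limma, adjusted p = 0.0110).

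The dim coro1a probe set averaged 3.97 ± 0.24 in CREB fish and 3.94 ± 0.86 in controls (SD, n = 5 each). Control probe sets for tag sequences that match no zebrafish transcript averaged 4.33 on CREB arrays and 4.08 on control arrays, so the mean of the dim probe set was below that of these control probe sets in both groups. Its 1 high value was 5.47 on control array 3. The bright probe set stands for the gene in the within-array values below, while member counts, medians and the mean member profile include both.

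The plastin gene lcp1, which encodes the leukocyte actin-bundling protein L-plastin, was at 9.85, 9.52, 8.78, 10.73 and 9.26 on CREB arrays 1 to 5, against 10.69, 10.61, 9.33, 10.57 and 9.60 on control arrays 1 to 5. CREB array 4 was the highest of all 10 arrays and CREB array 3 the lowest. The difference was -0.53 ± 0.39 (SE; limma, adjusted p = 0.309; 95% interval from -1.40 to 0.34). Without CREB arrays 3 and 5, the arrays with the low gapdh 5′ signal, it was -0.12 (limma, adjusted p = 0.843). Those were the lowest CREB arrays for lcp1, so a smaller fall follows from leaving them out. With array weights the difference passed at -0.89 (limma, adjusted p = 0.0488).

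The gene capgb belongs to the gelsolin family and encodes a protein that caps the growing end of a filament. It had the largest difference of the 9 probe sets. The signal was 9.27, 8.23, 9.24, 10.67 and 8.80 on CREB arrays 1 to 5, against 10.97, 10.78, 9.78, 10.70 and 9.61 on control arrays 1 to 5. Apart from array 4 the CREB arrays lay below the lowest control array, and CREB array 4 lay just under control array 4. The difference of -1.13 ± 0.44 (SE) missed the threshold (limma, adjusted p = 0.0756; 95% interval from -2.11 to -0.14). Without CREB array 4, the highest CREB array, it was -1.48 and passed (limma, adjusted p = 0.0136), and with array weights it passed at -1.51 (adjusted p = 0.0117).

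The spread within groups had the same form in most members. In 7 of the 8 probe sets above background, control arrays 3 and 5 were the lowest control arrays, as in arpc1b, where they were at 10.93 and 10.91 and control arrays 1, 2 and 4 at 11.88 to 11.96. The exception was arpc1a. In 6 of the 8, CREB array 4 was the highest CREB array, the exceptions being arpc1a and wasb. Those 2 control arrays had the highest gonad and egg marker levels. Their mean leukocyte marker level, over 18 pan-leukocyte, neutrophil and macrophage markers, was the lowest of the control arrays. It was 9.58 and 9.44, against 10.29 to 10.52 on control arrays 1, 2 and 4. The macrophage marker ctss2.1 went the other way, at 12.87 and 12.63 against 10.98 to 11.52. CREB array 4 had the highest leukocyte marker level of the CREB arrays, at 10.11 against 8.74 to 9.62, and the lowest kidney marker level, at 8.80 against 9.55 to 9.79. The part of tissue make-up in the member differences was not tested. The within-array values given next set members against other leukocyte transcripts. They cannot tell fewer leukocytes from less of a transcript in each leukocyte.

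**Figure D3:**
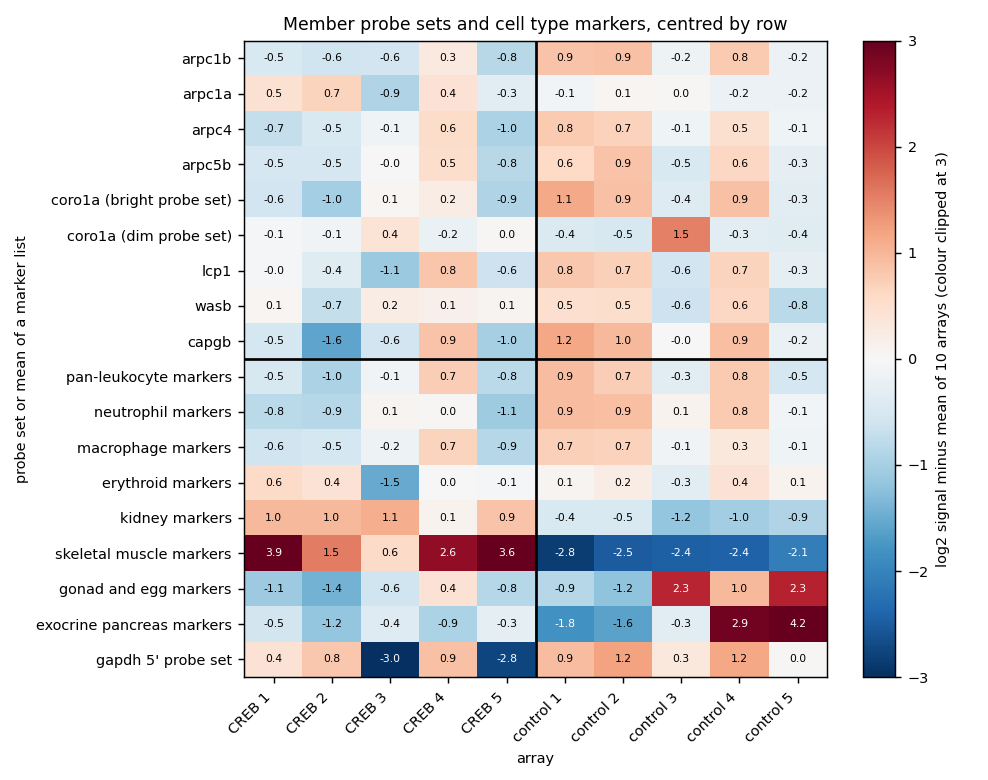
Log2 signal minus the mean of the 10 arrays (colour, clipped at 3, with the value in each cell) for the member probe sets (above the line), for the mean of each marker list and for the gapdh 5′ control probe set (below it). Columns are CREB arrays (left) and control arrays (right). Member rows other than arpc1a and the dim coro1a probe set are low on control arrays 3 and 5 relative to control arrays 1, 2 and 4, as are the pan-leukocyte rows.

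The mean leukocyte marker level was 9.28 ± 0.57 in CREB fish and 10.06 ± 0.51 in controls (SD, n = 5 each), a difference of -0.78 (two-sided exact permutation p = 0.0556). Of the markers, 4 of 7 for neutrophils, 1 of 6 for macrophages and none of 5 pan-leukocyte genes passed as lower, and none as higher. Over all probe sets, 6.79% were lower and 23.5% were higher. Differences of single markers ran from -2.44 (srgn) to 0.07 (csf1ra). For srgn, CREB arrays 3 and 5, those with the low gapdh 5′ signal, were at 7.43 and 7.67. The other CREB arrays were at 9.91 to 10.70 and the control arrays at 11.05 to 12.24. The macrophage marker that passed was ctss2.1, at -2.19 (limma, adjusted p = 0.0110). The mean level without ctss2.1 or without srgn was not tested. Other blood lists did not all move downwards. B cell markers (3 of 8 measured) were at a mean level of 5.12 to 5.53 on CREB arrays and 4.67 to 5.07 on control arrays. Of these, 2 passed as higher, pax5 by 0.41 and rag2 by 0.47 (limma, adjusted p = 0.0306 and 0.0169), where 23.5% of all probe sets were higher. Both were dim. The tag sequence control probe sets averaged 4.33 on CREB arrays and 4.08 on control arrays, and the highest of them on each array lay between 4.80 and 6.08. Thrombocyte markers (5 of 6) were at 4.34 to 4.76 on CREB arrays and 5.05 to 6.47 on control arrays. In that list 3 passed as lower and none as higher, where 6.79% of all probe sets were lower. Erythroid markers (7 of 11) were at 8.53 to 10.61 on CREB arrays and 9.72 to 10.48 on control arrays, and the 1 of 9 T and NK cell markers measured, trac, was at 5.32 to 6.71 on CREB arrays and 5.19 to 7.44 on control arrays, with none called. Set against the mean level of the 18 leukocyte markers on the same array, coro1a was at 1.64 ± 0.17 in CREB fish and 1.74 ± 0.25 in controls (SD, n = 5 each). The difference was -0.10 (exact permutation p = 0.476, adjusted p = 0.476 over 4 genes). Relative to leukocyte markers, lcp1 was at 0.35 ± 0.68 in CREB fish and 0.10 ± 0.21 in control fish, a difference of 0.25 (exact permutation, adjusted p = 0.476). On the same scale capgb was at -0.04 ± 0.49 in CREB fish and 0.31 ± 0.12 in control fish, a difference of -0.35 (exact permutation, adjusted p = 0.381).

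The gene wasb was at -0.96 ± 0.52 relative to the leukocyte markers in CREB fish and at -1.66 ± 0.24 in controls (SD, n = 5 each). The difference of 0.70 had an exact permutation p of 0.0238 and did not pass over 4 genes (adjusted p = 0.0952). The CREB arrays other than array 4 lay above the highest control array, and CREB array 4 was within the control range at -1.61. Without CREB array 4 the difference was 0.86 and passed (exact permutation, adjusted p = 0.0317), and capgb then passed at -0.50 (adjusted p = 0.0476). Without CREB array 3 lcp1 passed at 0.55 (exact permutation, adjusted p = 0.0317). CREB array 4 was the lowest CREB array for wasb and the highest for capgb, and CREB array 3 was the lowest for lcp1. Larger differences therefore follow from leaving these arrays out. With other single arrays left out, the adjusted p (exact permutation) reached 0.254 for wasb, 0.722 for capgb and 0.754 for lcp1.

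Member calls moved with the arrays included. Without CREB array 4, the highest CREB array in 6 member probe sets, arpc1b, arpc4 and capgb passed as lower, 3 of 9, where 7.99% of all probe sets were lower. Larger falls follow from leaving out the highest CREB array. Array weights count arrays far from their group for less. With them arpc1b, arpc4, arpc5b, coro1a (bright probe set), lcp1 and capgb passed as lower, 6 of 9. Of all probe sets, 9.72% were then lower. The weights were 0.39 and 0.59 for control arrays 3 and 5, against 1.68 to 3.17 for control arrays 1, 2 and 4. CREB array 4 had 0.65, the lowest weight of the CREB arrays. These are the low control arrays and the high CREB array of most members, so larger falls follow from the weights. Leaving out control arrays 3 and 5 was chosen after seeing the data, and these are the lowest control arrays in 7 of the 9 member probe sets, so that larger falls follow from the choice. The count was then 2 of 9 lower, arpc1b and coro1a, with 5.68% of all probe sets lower and a member median of -0.99, and nothing is read from it. With only control arrays 1 and 2 kept in the control group, no member passed (limma, adjusted p from 0.0630 upwards), 5 were lower and 1 higher at an unadjusted p under 0.05, 1.46% of all probe sets were lower, and the median was -1.02. Without CREB arrays 3 and 5 no member was lower and arpc1a was higher, where 2.39% of all probe sets were lower and 10.7% higher. Those arrays were the lowest for arpc1a, so its rise follows from the choice.

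**Figure D4:**
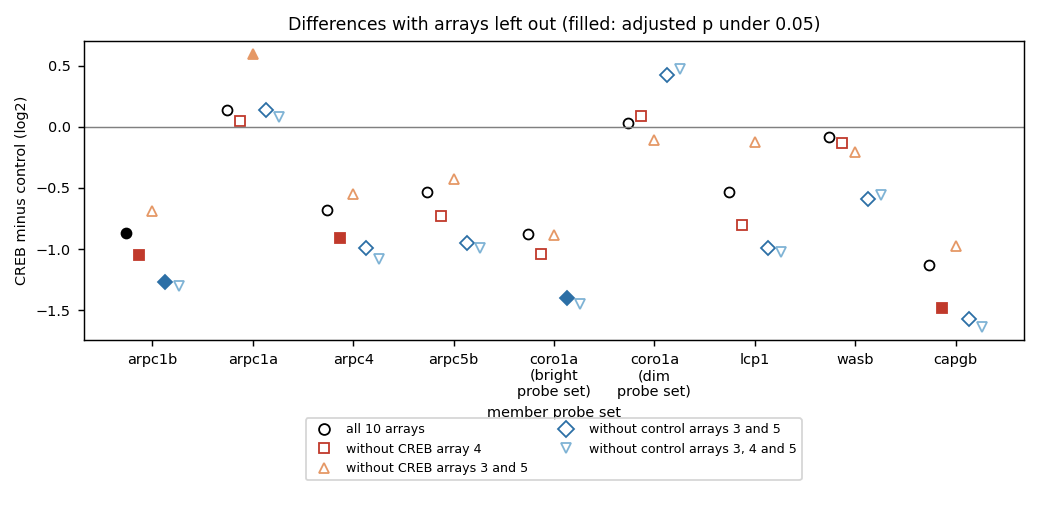
Log2 difference, CREB minus control (vertical axis), of each member probe set with all 10 arrays and with the arrays named in the legend left out. Filled symbols have an adjusted p under 0.05 (limma). Leaving out control arrays 3 and 5, the lowest control arrays in 7 of the 9, moved the differences of the bright members other than arpc1a downwards, as in coro1a, at -1.40 without them and -0.88 with all arrays, which follows from the choice of arrays.

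Other genes of the actin machinery went both ways. Of 149 listed by role, 67 were measured, of which 6 were lower in CREB fish, 8 were higher and 53 missed the threshold (limma). That is 8.96% lower, against 6.79% over all probe sets, and 11.9% higher, against 23.5%. The median log2 difference was -0.06, against 0.18 over all probe sets, and it ranged from -1.74 to 2.03. The brightest probe set stood for each gene, and over all probe sets of log2 6 or more the median was -0.03. None of the 67 was a member.

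The other Arp2/3 subunits resembled the members in direction. All 4 measured genes had differences below 0, with a median of -0.76, and 1 of them passed. Over all probe sets, 37.3% were below 0 and 6.79% passed as lower. A share of 1 in 4 called is no result about these subunits as a group. The subunit gene arpc3 was at 10.86, 10.82, 10.27, 11.66 and 10.11 on CREB arrays 1 to 5, against 12.17, 12.29, 11.23, 12.06 and 11.10 on control arrays 1 to 5, again with control arrays 3 and 5 low and CREB array 4 high. It fell by 1.03 ± 0.34 (SE; limma, adjusted p = 0.0434). The call did not hold under quantile scaling, with dim probe sets left out or without any of 7 single arrays, CREB 1, 2, 3 and 5 and control 1, 2 and 4. It was lost too with control arrays 1 and 2 as the only controls (-1.49, limma, adjusted p = 0.0827). Without CREB arrays 3 and 5, the arrays with the low gapdh 5′ signal, the difference was -0.66 (limma, adjusted p = 0.209). Those were the lowest CREB arrays for arpc3, so a smaller fall follows from leaving them out. The gene arpc5a, paralogue of arpc5b, had a difference of -0.49 ± 0.38 (SE; limma, adjusted p = 0.324), and its second probe set -0.74 (adjusted p = 0.106).

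Among 9 activators of Arp2/3, 3 were higher and none was lower. That is 33.3% higher, against 23.5% over all probe sets, and is no result about the activators as a group. The activator gene brk1, named after its values were seen, had every CREB array below every control array, as had 4.2% of all probe sets. Its difference of -0.76 missed the threshold (limma, adjusted p = 0.0567). The gene wipf2a, which encodes a partner of Wiskott-Aldrich family proteins, averaged 7.47 ± 0.43 in CREB fish and 6.44 ± 0.22 in controls (SD, n = 5 each), and rose by 1.03 ± 0.20 (SE; limma, adjusted p = 0.00853) with no overlap. Over all probe sets, 19.6% had every CREB array above every control array. The WAVE complex gene nckap1 rose by 0.61 ± 0.16 (SE; limma, adjusted p = 0.0223), which did not hold under median centring or cyclic loess. The WAVE gene wasf3a, at 3.74 in CREB fish and 3.45 in control fish, was below the tag sequence level, and its difference of 0.29 (limma, adjusted p = 0.0447) was 0.03 under quantile scaling. Of 6 inhibitors and coronins, 1 passed as lower, where 6.79% of all probe sets were lower. This gene, gmfb, whose family of proteins takes filament branches apart, averaged 9.10 ± 0.16 in CREB fish and 9.72 ± 0.30 in controls (SD, n = 5 each). It fell by 0.62 ± 0.15 (SE; limma, adjusted p = 0.0171), with no overlap, as in 4.2% of all probe sets. Without CREB arrays 3 and 5, the arrays with the low gapdh 5′ signal, the difference was -0.57 and missed the threshold (limma, adjusted p = 0.0777).

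Of 7 cofilin family members and regulators, 1 passed as lower, where 6.79% of all probe sets were lower. The cofilin-like gene cfl1l, whose family severs and depolymerises filaments, averaged 9.26 ± 0.60 in CREB fish and 10.53 ± 0.41 in controls (SD, n = 5 each) and fell by 1.27 ± 0.30 (SE; limma, adjusted p = 0.0143). Actin itself did not pass: actb1 had a difference of 0.10 ± 0.15 and actb2 of 0.20 ± 0.14 (SE; limma, adjusted p = 0.613 and 0.284). The profilin genes pfn2a and pfn2b, whose products bind actin monomers, rose by 0.51 ± 0.16 and 0.51 ± 0.15 (SE; limma, adjusted p = 0.0366 for pfn2a and 0.0274 for pfn2b), and neither held under median centring or cyclic loess. A further profilin gene, pfn1, named after its values were seen, went the other way. Its difference of -0.65 ± 0.31 (SE) missed the threshold (limma, adjusted p = 0.130).

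The widest range was among 10 capping and severing genes, with 2 lower, 2 higher and 6 that did not pass. Over all probe sets, 6.79% were lower and 23.5% were higher, and these counts are no result about the class as a group. The scinderin-like gene scinlb averaged 8.94 ± 0.68 in CREB fish and 10.68 ± 0.45 in controls (SD, n = 5 each) and fell by 1.74 ± 0.33 (SE; limma, adjusted p = 0.00741). The supervillin gene svila fell by 1.26 ± 0.20 (SE; limma, adjusted p = 0.00433), and its second probe set by 0.72 (adjusted p = 0.0281). The villin gene vil1, whose product bundles filaments in the brush border of absorptive epithelia, averaged 5.34 ± 0.35 in CREB fish and 4.28 ± 0.22 in control fish and rose by 1.06 ± 0.18 (SE; limma, adjusted p = 0.00520). It was dim. The tag sequence control probe sets averaged 4.33 on CREB arrays and 4.08 on control arrays, and the highest on each array lay between 4.80 and 6.08. The villin-like gene vill, named after its values were seen, rose by 2.03 ± 0.44 (SE; limma, adjusted p = 0.0111). Kidney markers were higher in CREB fish too, and the part of kidney cells in the villin values was not tested.

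Of 4 bundling and membrane linker genes 1 passed, where 6.79% of all probe sets were lower. The fascin gene fscn1a fell by 1.20 ± 0.29 (SE; limma, adjusted p = 0.0148), its second probe set by 0.51 (adjusted p = 0.0409), while the third had a difference of 0.13 (adjusted p = 0.552). The first averaged 5.30 ± 0.65 in CREB fish and 6.50 ± 0.26 in controls (SD, n = 5 each). It was dim, as the highest tag sequence control probe set on each array lay between 4.80 and 6.08. Without CREB arrays 3 and 5, its lowest arrays, the difference was -0.78 (limma, adjusted p = 0.0457), and a smaller fall follows from that choice. Neither of 2 formin and Ena/VASP genes passed by its brightest probe set. A dimmer pair of vaspb probe sets, chosen after their values were seen, were higher (0.44 and 0.62; limma, adjusted p = 0.0201 and 0.00743), and a further one had a difference of -0.20 (adjusted p = 0.626). The genes capga, cfl2 and pls3 had no probe set with 1 symbol. The 13 calls chosen by the smallest p within each role kept their direction without control arrays 3, 4 and 5, where only gmfb passed, at -0.91 (limma, adjusted p = 0.0364), and 8 of the 13 passed under each of the 3 other scalings. Those fits reuse arrays on which the 13 were chosen, so a kept direction was likely beforehand and nothing is read from it.

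**Figure D5:**
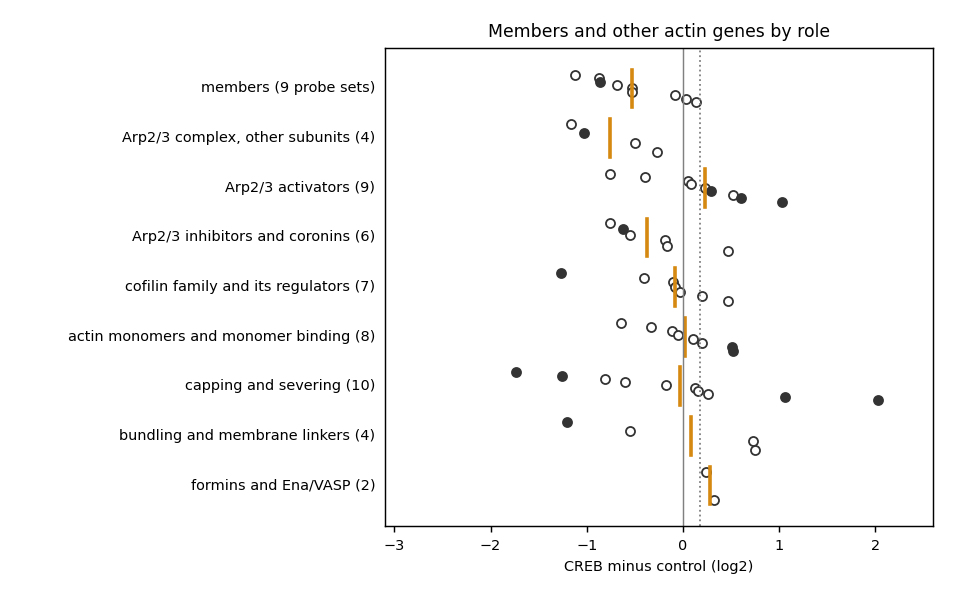
Log2 difference, CREB minus control (horizontal axis), of the 9 member probe sets and of 50 other actin genes by role, with the number measured in brackets. Filled points have an adjusted p under 0.05 (limma), orange bars are medians, the solid line is 0 and the dotted line the median over all probe sets (0.18). The medians of members (-0.53) and of other Arp2/3 subunits (-0.76) lie left of the others.

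Profiles most like the mean of the members over the 10 arrays were sought among 8170 other named genes, by the root mean square difference of centred log2 signals. The closest was the kinase gene vrk2, at 0.151, then the sorting nexin gene snx5 at 0.154, the nucleosome-binding protein gene hmgn2 at 0.155, the endosomal sorting gene chmp4bb at 0.157 and the tropomyosin gene tpm3 at 0.159. The median over all those genes was 0.605. Among the members, arpc5b (0.207), arpc1b (0.216) and arpc4 (0.216) were closest to that mean, of which they are part, and arpc1a (0.599) and the dim coro1a probe set (0.827) were farthest. None of the 5 like genes passed the test between groups (limma, adjusted p between 0.0879 and 0.244).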

How the data were processed

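Total RNA of kidney marrow was extracted with Trizol and biotin-labelled with an Affymetrix kit that primes from the 3′ end, per the labels' protocols. The deposited table holds processed values of 15617 probe sets on 10 arrays, read as log2 from their range. How the authors summarised and normalized them is not stated, and the scaling between arrays is therefore unknown. After 115 control probe sets were set aside, 15502 were tested. The platform annotation gave 1 symbol to 10795, several to 135 and none to 4572, and 10711 symbols were updated by Entrez ID from a RefSeq table (GRCz12tu, names and gene order only). For other genes the brightest probe set was used.

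Groups came from the sample titles and were compared in R 4.3.3 with limma 3.58.1 (linear model and eBayes, two-sided, no filter), and p-values were adjusted over 15502 probe sets by Benjamini-Hochberg with a threshold of 0.05. Differences are CREB minus control. Within-array values were compared by exact two-sided permutation over 252 arrangements. In simulated arrays, 59.0% of changes of 1 and 90.0% of changes of 2 (log2) among 15502 probe sets were recovered, with 12 false calls. The simulated noise was independent between probe sets, whereas many probe sets moved together on single arrays here. Those rates therefore need not hold for these data.

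The members, lists and alternatives were chosen with earlier results of these data known. Named genes were all members, up to 3 called genes per actin class with the smallest p, 8 preset genes, 4 leukocyte markers and the 5 closest profiles outside clone names. Alternatives were a replicate block, a filter at log2 6, other scalings, other eBayes settings, array weights, arrays left out and probe sets averaged by gene. Leaving out control arrays 3 and 5 was added after seeing the data. Python 3.11.15 was used for summaries and figures. Precision is limited by having 5 arrays in each group. The 67 other actin genes include 17 of a class that is counted but not reported here by name or plotted.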

Additional observations from a re-analysis of the deposited data

Results flagged for a closer look

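Single arrays lay far from the rest of their group in 5 of 60 groups looked at, where chance alone gives about 1 in 20 such groups. The dim coro1a probe set was at 5.47 on control array 3, above 4 control arrays between 3.47 and 3.64. The gene wasb was at 7.64 on CREB array 2, below 8.43 to 8.57 on the other CREB arrays. The profilin gene pfn2a was at 11.45 on CREB array 2, above 10.85 to 10.99 on the other CREB arrays. Relative to the leukocyte markers on the same array, lcp1 was at -0.84 on CREB array 3, below a range of 0.52 to 0.83 on the remaining CREB arrays, and at -0.25 on control array 3, against 0.15 to 0.28 on the other control arrays.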

How the results depend on the processing

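With all arrays 1 member was lower and none higher. No member was lower with probe sets under log2 6 left out, under quantile scaling or under median centring, and 1 was under cyclic loess, with the replicate block, with trend and robust settings and with probe sets averaged by gene. With array weights 6 were lower, where 9.72% of all probe sets were, and larger falls follow from the low weights of control arrays 3 and 5. Leaving out 1 array gave 0 to 3 lower, none higher, a median difference from -0.80 to -0.42, and 5 to 10 of the 67 other actin genes lower and 5 to 9 higher. Without control arrays 3, 4 and 5, which gave 0 members, 2 other actin genes were lower and 0 higher, and the member median was -1.02. Of all probe sets, 1.46% were then lower. Without control arrays 3 and 5, chosen after seeing the data and low in most members, which gave 2 members, 14 other actin genes were lower and 5 higher, and the member median was -0.99. Of all probe sets, 5.68% were then lower. Without CREB arrays 3 and 5, which gave 0 members lower and 1 higher, 3 other actin genes were lower and 3 higher, where 2.39% of all probe sets were lower and 10.7% higher. Other actin genes higher numbered 3 of 56 with dim probe sets left out and 4 of 67 under median centring and cyclic loess. With array weights 17 of the 67 were lower, where larger falls may follow from the weights too.

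The within-array change of arpc1b minus arpc1a ranged from -1.21 to -0.81 with 1 array left out, and was -1.38 without control arrays 3, 4 and 5 (exact permutation p = 0.0952) and -1.28 without CREB arrays 3 and 5 (exact permutation p = 0.0536). Relative to leukocyte markers, with 1 array left out, lcp1 ranged from 0.13 to 0.55, wasb from 0.53 to 0.86 and capgb from -0.50 to -0.19. The cause of these changes was not tested.

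The scalings moved the median of all probe sets from 0.18 to 0.04 (quantile), 0.11 (median centring) and -0.01 (cyclic loess), and the share of calls that were lower from 22.4% to 39.6%, 36.7% and 48.1%. Relative to all probe sets the member median was -0.71 as reported and -0.52, -0.71 and -0.56 under them. Animals share only a number: deviations of same-numbered arrays correlated between -0.02 and 0.27, and 1 of 5 correlated best with its own number. The replicate block gave 616 probe sets lower and 1762 higher, against 1052 and 3640.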
